A study of Mus musculus with 10 samples.

Results

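The GABA genes examined here are 27 genes for the synthesis, breakdown, transport and reception of gamma-aminobutyric acid (GABA), chosen by symbol from the 20483 genes of the deposited expression table. All 27 were in the table. The series compares 2 divisions of the shell of the nucleus accumbens, a ventral striatal nucleus, in wild-type (WT) mice: the lateral shell (n = 5 libraries) and the medial shell (n = 5 libraries). The labels give no age, treatment or transgene for either group. Each library was made by Geo-seq, which amplifies the RNA of a small laser-captured piece of tissue, so a library mixes all cell types of that piece. The labels number the libraries of a region as biological replicates without saying whether each came from its own mouse or how the pieces were placed, so p-values measure the spread between these libraries, which may be partly technical.

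GABA is the main inhibitory transmitter of the striatum, whose projection neurons and most of whose interneurons are GABAergic. Glutamate decarboxylase makes it, a vesicular transporter loads it, receptors of a chloride channel type (GABA-A) and a G-protein-coupled type (GABA-B) sense it, plasma membrane transporters remove it, and GABA transaminase and succinic semialdehyde dehydrogenase break it down. The effect of opening a GABA-A receptor depends on the chloride gradient, which is set by cation-chloride cotransporters.

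Values are TPM, transcript abundances that are scaled for gene length and to the same total in each library and keep no record of sequencing depth. Differences are given as log2 fold changes, lateral minus medial, of TPM + 1, so a negative value means a higher level in the medial shell. Between 15402 and 17003 genes were above 0 in a library, the mitochondrial genome supplied 23.5% to 35.3% of the TPM, and rank correlations between libraries across genes ran from 0.796 to 0.869. Summed marker levels of spiny projection neurons, the main striatal neurons, overlapped between the regions, at 3685 to 6248 TPM in lateral and 3530 to 5741 TPM in medial libraries, with none of the 12 markers at 0 in all 10 libraries and 9 of the 12 higher on average in lateral. GABAergic interneuron markers summed to 538 to 5709 TPM in lateral and 33.4 to 1720 TPM in medial libraries, with 8 of 10 higher on average in lateral. Neuroblast markers summed to 8.36 to 24.3 TPM in lateral and 29.3 to 55.6 TPM in medial libraries, with all 4 higher on average in medial. Microglial markers summed to 284 to 458 TPM in lateral and 138 to 276 TPM in medial libraries, without overlap and with all 7 higher on average in lateral. Oligodendrocyte markers summed to 273 to 792 TPM and 99.6 to 377 TPM, with all 6 higher on average in lateral. The part of these cell types in the results on the GABA genes was not tested. The median log2 fold change of all 15596 genes tested was -0.21, so the members described in most detail are also given relative to that median.

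Of the 27 members 25 could be tested, and 1 of them passed the threshold of an adjusted p under 0.05 (limma with Benjamini-Hochberg adjustment over all genes tested). It was Gad2, higher in the medial shell, which makes 4.00% of the members tested where 1.10% of all genes tested passed in that direction. No member passed in the lateral direction, where 0.385% of all genes did. At an unadjusted p under 0.05 the members numbered 8 in the medial and 0 in the lateral direction, against backgrounds of 12.3% and 3.03%. Under median-ratio scaling between libraries these counts were 4 and 3. The shares of all genes at that cutoff are not given for this scaling, and the backgrounds above do not apply to it. In 3 members, Gad2, Abat and Gphn, every medial value lay above every lateral value, where 3.39% of all genes did so, and none had every lateral value above every medial one, where 0.859% of all genes did. The median log2 fold change of the 25 was -0.39, and 15 of them (60.0%) had negative values, against 68.7% of all genes tested. The members were chosen with earlier results of these data known, so these shares describe the members and are not a test of them.

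**Figure D1:**
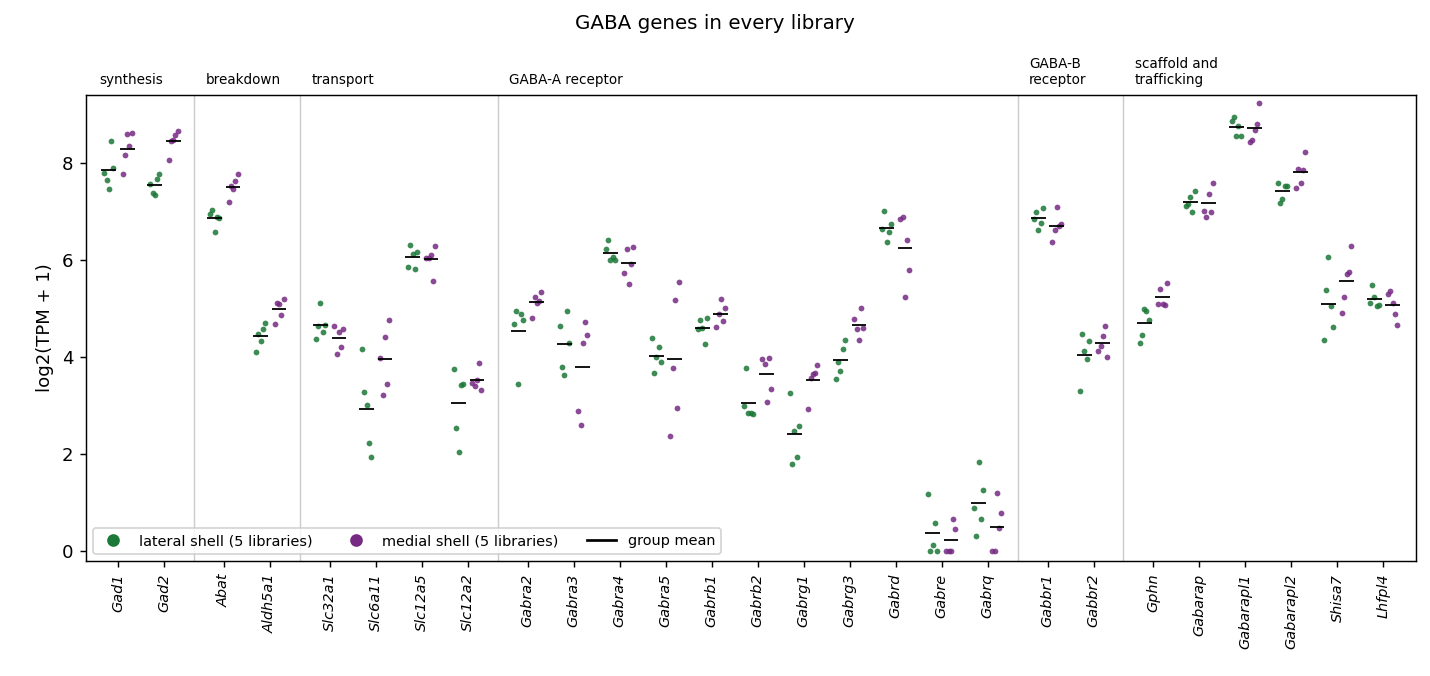
Level of each of the 27 GABA genes, as log2(TPM + 1), in the 5 lateral shell and the 5 medial shell libraries (points), with the group mean as a black line. The medial points of Gad2, Abat and Gphn lie above all their lateral points, and Gabre and Gabrq lie near 0 in both regions.

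Promoter sequences of 5 members are shown because the ratios between these members separated the regions, as given further on: both decarboxylase genes, the vesicular transporter gene, and the alpha subunit genes Gabra2 and Gabra4. Each is the longest stretch of the gene's RefSeq promoter window (250 bases before to 50 after a gene's start, GRCm38.p6) that lies outside every GENCODE M21 exon, written 5′ to 3′ on the gene's strand. The Slc32a1 stretch runs 8 bases past its RefSeq start. Capitals mark a GC box (GGGCGG) or a TATA box (TATAAA) on either strand.
Gad1, chr2:70561879-70562041, plus strand: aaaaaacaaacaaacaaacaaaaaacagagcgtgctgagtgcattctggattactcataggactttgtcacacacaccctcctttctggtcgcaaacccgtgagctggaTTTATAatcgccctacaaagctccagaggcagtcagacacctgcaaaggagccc
Gad2, chr2:22622077-22622204, plus strand: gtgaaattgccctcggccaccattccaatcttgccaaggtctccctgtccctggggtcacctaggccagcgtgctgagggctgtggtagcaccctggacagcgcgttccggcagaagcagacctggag
Slc32a1, chr2:158610724-158610766, plus strand: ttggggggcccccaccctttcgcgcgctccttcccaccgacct
Gabra2, chr5:71095850-71096099, minus strand: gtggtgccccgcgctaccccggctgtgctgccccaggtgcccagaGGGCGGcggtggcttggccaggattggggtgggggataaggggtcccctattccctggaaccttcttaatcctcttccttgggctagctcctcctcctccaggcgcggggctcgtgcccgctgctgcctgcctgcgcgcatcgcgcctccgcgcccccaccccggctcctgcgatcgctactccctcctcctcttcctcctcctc
Gabra4, chr5:71658364-71658558, minus strand: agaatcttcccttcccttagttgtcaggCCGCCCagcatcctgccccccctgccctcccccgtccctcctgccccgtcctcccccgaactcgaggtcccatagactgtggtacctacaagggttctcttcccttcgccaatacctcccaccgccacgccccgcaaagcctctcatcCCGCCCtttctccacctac

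The Gad2 and Slc32a1 stretches held neither motif, Gad1 held 1 TATA box, Gabra2 held 1 GC box and Gabra4 held 2. The Slc32a1 stretch is only 43 bases long, but the whole Slc32a1 and Gad2 windows held neither motif. The whole Gad1 window also held a GC box, outside the printed stretch. The Gad1 stretch lies between exons inside the annotated gene, whose outermost start is further upstream. Over whole windows, 24 members had 29 windows in the RefSeq table. A GC box was in 58.6% of these windows and in 35.7% of all 32851 windows, and their median GC content was 61.0% against 52.7%. The TATA box was in 13.8% and 13.6%. The homeodomain core TAATTA was in 3.45% of member windows, that of Gabrg1 alone, and in 5.29% of all. The full cAMP response element (TGACGTCA) was in no member window and in 1.79% of all. A match describes letters and was not tested as a binding site.

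Both decarboxylase genes were among the most abundant transcripts, above the 98th percentile of mean level, and the Gad2 level was higher in the medial shell. Gad2 encodes GAD65, the form of glutamate decarboxylase enriched at nerve terminals (chromosome 2, 22622205 to 22693874, plus strand). In lateral replicates 1 to 5 it was at 187, 166, 160, 202 and 218 TPM, and in medial replicates 1 to 5 at 264, 348, 352, 381 and 404 TPM. The regions did not overlap, and the lowest medial library stood above the highest lateral one. The means were 187 ± 24.3 TPM (SD, n = 5) in lateral and 350 ± 53.2 TPM (SD, n = 5) in medial libraries, 1.87 times as high in medial. The log2 fold change was -0.90 (standard error 0.15, 95% confidence interval from -1.23 to -0.57, adjusted p by limma = 0.0133), or -0.69 relative to the median of all genes. The call was lost without a mean-variance trend (adjusted p = 0.0649) and without both lateral replicate 5 and medial replicate 2 (0.0642), a pair that earlier work on these data set apart, where the log2 fold change was -0.95.

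Gad1, on the same chromosome (70553072 to 70602014, plus strand), encodes GAD67, the form that supplies most basal GABA. It was at 220, 198, 174, 346 and 237 TPM in lateral and at 216, 286, 382, 322 and 391 TPM in medial libraries. Lateral replicate 4 stood above 3 medial libraries, and the regions overlapped. The means were 235 ± 66.5 TPM and 319 ± 72.0 TPM, with a log2 fold change of -0.45 (95% confidence interval from -0.90 to 0.00, adjusted p by limma = 0.327), or -0.24 relative to the median of all genes. An antisense gene, Gad1os, overlaps Gad1, and their reads cannot be separated unless the counting used strand.

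The ratio of Gad1 to Gad2 within a library does not depend on the scaling between libraries. It was 1.18, 1.19, 1.09, 1.71 and 1.09 in lateral and 0.820, 0.823, 1.08, 0.843 and 0.967 in medial libraries. Gad1 was thus listed above Gad2 in all 5 lateral and in 1 of 5 medial libraries. The lowest lateral ratio and the highest medial ratio lay next to each other, without overlap. For the tests of this and later ratios 1 was added to each TPM, so the tested values are not wholly free of that scaling. The difference in mean log2 ratio was 0.45 (p = 0.00794 by a two-sided exact permutation test, the smallest that 5 against 5 libraries can give, or 0.0185 after adjustment over 7 ratios). In bulk tissue, fewer cells of a type and less RNA per cell cannot be told apart, and the part of the interneuron and neuroblast markers in the Gad results was not tested.

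The genes for GABA breakdown, which acts in mitochondria, had values on the same side as Gad2 but did not pass. Abat encodes GABA transaminase (chromosome 16, 8513429 to 8621568, plus strand). It was at 121, 129, 94.8, 116 and 116 TPM in lateral and at 145, 182, 174, 195 and 216 TPM in medial libraries. No value overlapped, though the gap between the regions was narrower than for Gad2. The means were 115 ± 12.7 TPM and 182 ± 26.5 TPM, with a log2 fold change of -0.65 (95% confidence interval from -0.97 to -0.33, adjusted p by limma = 0.0508), just outside the threshold, and -0.44 relative to that median. Abat passed in 3 of 22 alternatives: under quantile normalization (adjusted p = 0.0324), with sample weights (0.042) and without medial replicate 1 (0.0291).

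Aldh5a1 encodes succinic semialdehyde dehydrogenase, the next enzyme of the route. It was at 16.3, 21.3, 19.0, 22.8 and 24.9 TPM in lateral and at 24.8, 33.8, 33.3, 28.2 and 35.6 TPM in medial libraries. Only lateral replicate 5 and medial replicate 1 overlapped. Its log2 fold change was -0.56 (95% confidence interval from -0.96 to -0.15, adjusted p by limma = 0.184), or -0.35 relative to that median.

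None of the 4 transporter genes passed, and their values went both ways. Slc32a1 encodes the vesicular transporter VGAT, which fills synaptic vesicles with GABA (chromosome 2, 158610767 to 158615748, plus strand). It was at 19.7, 23.996, 33.6, 21.8 and 24.2 TPM in lateral and at 23.95, 15.6, 21.9, 17.6 and 22.8 TPM in medial libraries. The regions overlapped and the mean was higher in lateral (24.7 ± 5.33 TPM) than in medial libraries (20.4 ± 3.59 TPM), with a log2 fold change of 0.26 (95% confidence interval from -0.19 to 0.71, adjusted p by limma = 0.592), or 0.47 relative to that median. An antisense gene, Gm14205, overlaps Slc32a1, with the same limit on separating reads as for Gad1 and Gad1os.

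The ratio of Gad2 to Slc32a1 was 9.48, 6.91, 4.76, 9.30 and 8.998 in lateral and 11.01, 22.3, 16.1, 21.7 and 17.7 in medial libraries. Every medial ratio was above every lateral one. The means were 7.89 ± 2.03 and 17.8 ± 4.60, a difference in mean log2 ratio of -1.16 (p = 0.00794 by a two-sided exact permutation test, or 0.0185 after adjustment over 7 ratios). Gad2 is also part of the Gad1 to Gad2 ratio, so neither ratio is independent of the Gad2 difference given above. All 7 pairs were chosen with earlier results of these data known.

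Slc6a11 encodes GAT-3, the GABA transporter of astrocytes. It was at 17.1, 8.73, 7.06, 3.67 and 2.82 TPM in lateral and at 14.8, 8.34, 20.4, 9.83 and 26.3 TPM in medial libraries. Lateral replicate 1 stood above 3 medial libraries, and the regions overlapped. The log2 fold change was -1.04 (95% confidence interval from -1.97 to -0.11, adjusted p by limma = 0.269), or -0.83 relative to that median. Astrocyte markers summed to 823 to 1126 TPM in lateral and 946 to 1301 TPM in medial libraries, with 7 of 8 higher on average in medial, and their part in the Slc6a11 values was not tested.

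The chloride cotransporter genes did not differ detectably. Slc12a5 encodes KCC2, which extrudes chloride from mature neurons. It was at 56.8, 78.3, 68.7, 54.9 and 70.3 TPM in lateral and at 64.4, 65.1, 67.6, 46.6 and 77.2 TPM in medial libraries, with a log2 fold change of 0.04 (95% confidence interval from -0.33 to 0.42). Slc12a2 encodes NKCC1, which imports chloride and is not restricted to neurons. It was at 12.6, 4.82, 3.15, 9.74 and 9.88 TPM in lateral and at 10.1, 9.58, 10.5, 13.6 and 9.02 TPM in medial libraries, with a log2 fold change of -0.47 (95% confidence interval from -1.20 to 0.25). KCC2 transcripts outnumbered NKCC1 transcripts in all 10 libraries. Their ratio was 4.53 to 21.8 in lateral and 3.43 to 8.56 in medial libraries, with lateral replicates 2 and 3 far above the rest (p = 0.286 by a two-sided exact permutation test, or 0.4 after adjustment over 7 ratios).

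**Figure D2:**
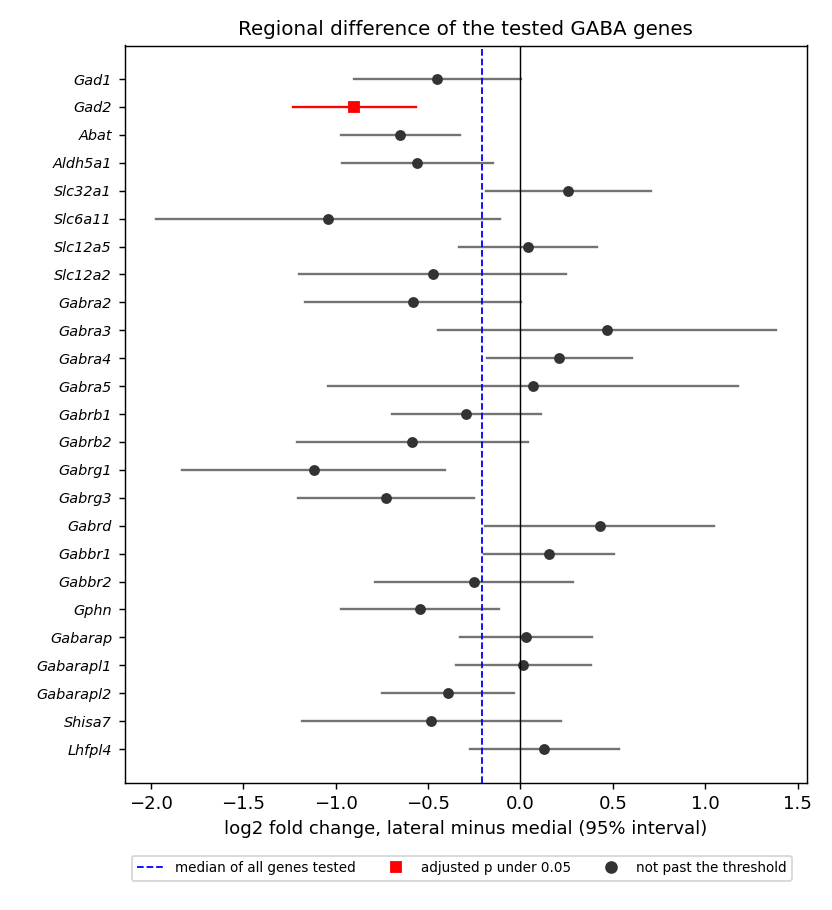
Log2 fold change, lateral minus medial, of the 25 tested members with its 95% interval (limma). Gad2 (red square, -0.90) passed the adjusted threshold, the other 24 (circles) did not, and the dashed line is the median of all genes tested (-0.21).

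GABA-A receptors are assembled from 5 subunits, usually alpha, beta and gamma or delta, and the subunits present set where a receptor sits and how it responds. Of the 11 subunit genes among the members 9 could be tested, 5 had negative and 4 positive log2 fold changes, and none passed (limma). The most abundant were Gabrd and Gabra4, whose products assemble into extrasynaptic receptors that carry tonic inhibition. Gabrd, the delta subunit gene (chromosome 4, 155384980 to 155398112, minus strand), was at 98.9, 127, 81.2, 93.9 and 105 TPM in lateral and at 114, 117, 36.6, 84.3 and 54.6 TPM in medial libraries. The lateral values kept together while the medial ones ran from the second-highest to the lowest of all. The log2 fold change was 0.43 (95% confidence interval from -0.19 to 1.05, adjusted p by limma = 0.51), or 0.63 relative to that median. Gabra4, the alpha4 subunit gene, was at 73.8, 84.2, 62.8, 65.4 and 62.6 TPM in lateral and at 52.0, 73.3, 44.2, 59.3 and 76.4 TPM in medial libraries (a log2 fold change of 0.21, 95% confidence interval from -0.18 to 0.60, adjusted p by limma = 0.627).

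The gamma subunit genes among the members had the smallest p of the receptor members, with higher medial values. Gabrg1, encoding gamma1 (chromosome 5, 70751047 to 70842617, minus strand), was at 8.62, 2.46, 4.58, 2.85 and 4.97 TPM in lateral and at 6.58, 10.9, 11.5, 11.7 and 13.3 TPM in medial libraries. Lateral replicate 1 and medial replicate 1 overlapped, and the other 4 medial libraries were above all lateral ones. The means were 4.69 ± 2.45 TPM and 10.8 ± 2.53 TPM, with a log2 fold change of -1.12 (95% confidence interval from -1.83 to -0.41, adjusted p by limma = 0.127), or -0.91 relative to that median. Gabrg3, encoding gamma3 (chromosome 7, 56716465 to 57387188, minus strand), was at 10.7, 13.9, 12.1, 17.02 and 19.4 TPM in lateral and at 26.7, 23.0, 19.3, 31.0 and 23.3 TPM in medial libraries. Its means were 14.6 ± 3.59 TPM and 24.7 ± 4.41 TPM, with a log2 fold change of -0.73 (95% confidence interval from -1.20 to -0.25, adjusted p by limma = 0.14), or -0.52 relative to that median. For Gabrg3 lateral replicate 5 and medial replicate 3 lay side by side, and no other library overlapped.

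As a description without a test, Gabrd made up 81.2% to 88.6% of the summed TPM of Gabrg1, Gabrg3 and Gabrd in lateral libraries and 54.2% to 77.5% in medial ones. The ranges did not overlap. These shares cover the listed members, not every gamma subunit gene in the table. Medial replicates 3 and 5 had the lowest Gabrd shares, and they also had the highest Gabra5 levels of all libraries.

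Gabra2, the alpha2 subunit gene of synaptic receptors, was at 24.8, 29.8, 9.94, 28.3 and 26.1 TPM in lateral and at 26.9, 36.5, 33.6, 34.5 and 39.5 TPM in medial libraries (a log2 fold change of -0.58, 95% confidence interval from -1.17 to 0.00, adjusted p by limma = 0.327). Lateral replicate 3 stood apart at 9.94 TPM. The ratio of Gabra2 to Gabra4 was 0.336, 0.354, 0.158, 0.434 and 0.418 in lateral and 0.518, 0.498, 0.761, 0.582 and 0.517 in medial libraries. No ratios overlapped, and the difference in mean log2 ratio was -0.79 (p = 0.00794 by a two-sided exact permutation test, or 0.0185 after adjustment over 7 ratios). Without both lateral replicate 5 and medial replicate 2, none of the 3 ratios whose regions did not overlap passed (adjusted p = 0.0667 for each by the exact permutation test, which cannot go below an unadjusted 0.0286 with 4 against 4). The Gabra2 to Gabra4 call was also lost without medial replicate 3 or medial replicate 4 (adjusted p = 0.0556 for each). Gabra2, Gabrg1, Gabra4 and Gabrb1 lie in 1 cluster on chromosome 5. Gabra4 (71569749 to 71658308, minus strand) and Gabrb1 (71658113 to 72149037, plus strand) overlap head to head, and reads there cannot be separated unless the counting used strand.

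**Figure D3:**
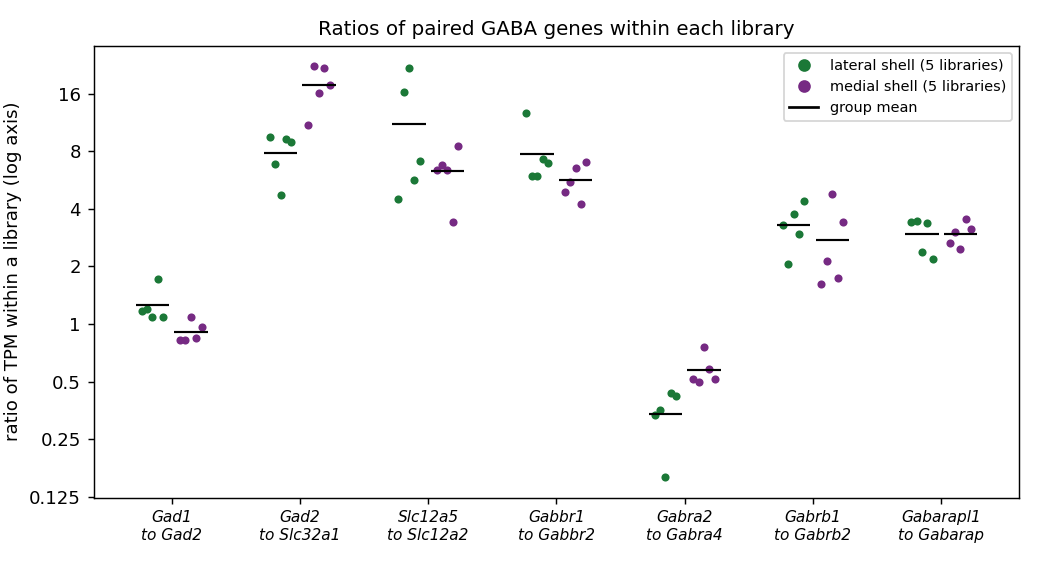
Ratio of TPM between paired GABA genes within each library, on a log axis, for 5 lateral and 5 medial libraries (points) with the group mean (black line). The regions do not overlap for Gad1 to Gad2, Gad2 to Slc32a1 and Gabra2 to Gabra4, and they overlap for the other 4 ratios.

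The remaining alpha and beta subunit genes overlapped between the regions. Gabra3 was at 11.5 to 29.9 TPM in lateral and 5.06 to 25.2 TPM in medial libraries (a log2 fold change of 0.47, 95% confidence interval from -0.45 to 1.38). Gabra5, the alpha5 gene, varied widely in the medial shell, at 4.202, 12.7, 35.0, 6.70 and 45.5 TPM against 11.8 to 20.0 TPM in lateral libraries. Its mean was higher in medial (20.8 ± 18.4 TPM) than in lateral libraries (15.6 ± 3.203 TPM), while its log2 fold change was 0.07 (95% confidence interval from -1.04 to 1.18), so its direction depends on the scale. Gabrb1 was at 18.3 to 26.7 TPM in lateral and 23.6 to 35.7 TPM in medial libraries (a log2 fold change of -0.29, 95% confidence interval from -0.70 to 0.11). Gabrb2 was at 6.06 to 12.8 TPM and 7.41 to 14.8 TPM (a log2 fold change of -0.58, 95% confidence interval from -1.21 to 0.04). The ratio of Gabrb1 to Gabrb2 was 3.29 ± 0.880 in lateral and 2.75 ± 1.36 in medial libraries (p = 0.397 by a two-sided exact permutation test, or 0.463 after adjustment over 7 ratios). Gabre and Gabrq, the epsilon and theta subunit genes, were too low to test. Gabre was listed at 0 in 2 lateral and 3 medial libraries and reached 1.26 TPM, and Gabrq was listed at 0 in 2 medial libraries and reached 2.57 TPM.

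**Figure D4:**
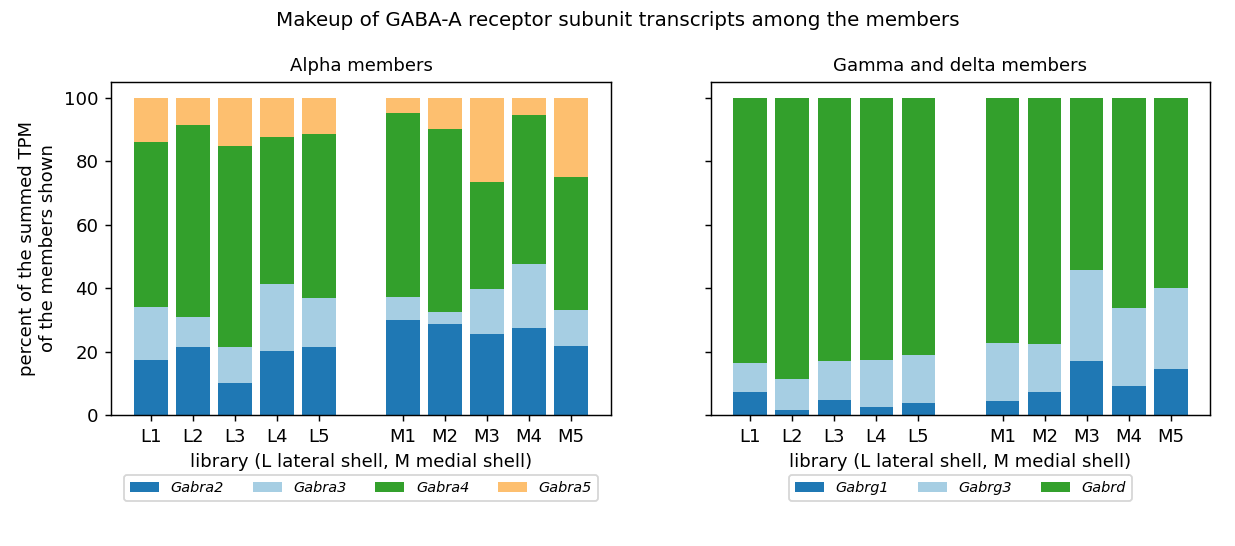
Percent of the summed TPM of the alpha members (left) and of the gamma and delta members (right) taken by each gene, with 1 stacked bar per library. The Gabrd share is 81.2% to 88.6% in the lateral bars and 54.2% to 77.5% in the medial bars.

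GABA-B receptors are obligate pairs of the ligand-binding subunit GABBR1 and the G-protein-coupling subunit GABBR2. Neither gene passed. Gabbr1 was at 113, 125, 97.2, 107 and 134 TPM in lateral and at 81.1, 97.5, 134, 102 and 106 TPM in medial libraries (a log2 fold change of 0.15, 95% confidence interval from -0.19 to 0.50, adjusted p by limma = 0.693). Gabbr2 was at 8.89, 21.1, 16.4, 14.5 and 19.1 TPM in lateral and at 16.5, 17.7, 20.5, 24.1 and 15.1 TPM in medial libraries (-0.25, -0.79 to 0.28, adjusted p = 0.673). Both genes overlapped between the regions. Gabbr1 was listed above its partner in every library, by 4.24 to 12.8 times, and the ratio did not differ detectably between the regions (p = 0.103 by a two-sided exact permutation test, or 0.181 after adjustment over 7 ratios). The highest ratio, 12.8, was that of lateral replicate 1, the library with the lowest Gabbr2 level.

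Of the 6 scaffold and trafficking genes none passed. Gphn encodes gephyrin, the postsynaptic scaffold that clusters inhibitory receptors (chromosome 12, 78226379 to 78684772, plus strand). It was at 18.5, 21.1, 31.0, 29.6 and 26.2 TPM in lateral and at 32.998, 41.2, 33.03, 32.6 and 44.9 TPM in medial libraries. All medial values were above all lateral ones, by a small margin. The means were 25.3 ± 5.39 TPM and 36.9 ± 5.73 TPM, with a log2 fold change of -0.54 (95% confidence interval from -0.97 to -0.12, adjusted p by limma = 0.213), or -0.34 relative to that median.

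The GABARAP family are ubiquitin-like proteins of receptor trafficking and autophagy, and its 3 genes were all abundant. Gabarapl1, the most abundant of all 27 members, was at 465, 488, 373, 428 and 374 TPM in lateral and at 340, 353, 405, 442 and 596 TPM in medial libraries (a log2 fold change of 0.02, 95% confidence interval from -0.35 to 0.38). Gabarapl2 was at 190, 142, 151, 184 and 182 TPM in lateral and at 177, 234, 191, 229 and 299 TPM in medial libraries (a log2 fold change of -0.39, 95% confidence interval from -0.75 to -0.04, adjusted p by limma = 0.277). Gabarap was at 126 to 171 TPM in lateral and 116 to 191 TPM in medial libraries (a log2 fold change of 0.03, 95% confidence interval from -0.33 to 0.39). Medial replicate 5 had the highest level of all 3, and it also had the lowest mitochondrial share (23.5%). The ratio of Gabarapl1 to Gabarap had the same mean in both regions, 2.97 (p = 0.905 by a two-sided exact permutation test, or 0.905 after adjustment over 7 ratios). Shisa7 and Lhfpl4 encode transmembrane auxiliary proteins of GABA-A receptors. Shisa7 was at 19.5 to 65.2 TPM in lateral and 28.9 to 76.9 TPM in medial libraries (a log2 fold change of -0.48, 95% confidence interval from -1.18 to 0.22), and Lhfpl4 at 32.2 to 43.6 TPM and 24.2 to 40.1 TPM (0.13, -0.27 to 0.53).

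Other genes of the pathway were taken from a list of 68, of which 59 were used and 55 tested. Of these 3 passed, all higher in the medial shell, which is 5.45% of those tested where 1.10% of all genes tested passed in that direction. The list was chosen with earlier results of these data known, so this share describes the list and is not a test of it. The list median was -0.11, and 35 of the 55 (63.6%) had negative values, against 68.7% of all genes tested. Hap1, encoding huntingtin-associated protein 1, which links GABA-A receptors to motor-driven transport, was at 8.47, 11.1, 17.9, 25.0 and 16.8 TPM in lateral and at 32.2, 61.9, 63.4, 31.0 and 57.6 TPM in medial libraries. Its regions did not overlap, and its log2 fold change was -1.60 (95% confidence interval from -2.25 to -0.94, adjusted p by limma = 0.0247). The Hap1 call was lost when lateral replicate 2 was left out, or any of medial replicates 2, 3 and 5 (adjusted p up to 0.0718), with a replicate block (0.062), without a mean-variance trend (0.0542) and without both lateral replicate 5 and medial replicate 2 (0.136). Kctd8, an auxiliary subunit gene of GABA-B receptors, was at 10.7 to 27.4 TPM in lateral and 23.6 to 48.5 TPM in medial libraries and did not pass (a log2 fold change of -0.97, 95% confidence interval from -1.57 to -0.36, adjusted p by limma = 0.117).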

How the data were processed

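The data are 10 libraries of mouse accumbens shell, 5 lateral and 5 medial. The authors deposited TPM (transcript abundances scaled to 1000000 per library) for 20483 genes by symbol. Per the submitters' processing notes the tools included HISAT2 2.1.0, featureCounts 1.6.3, fastp 0.20.0 and StringTie 1.3.4, with the build GRCm38 (mm10) and no roles stated. Neither the annotation nor the use of strand is stated there. Besides the overlaps given above, other members also overlap annotated genes on the opposite strand, among them Aldh5a1, Slc6a11, Gabra3, Gabra5, Gabrg3, Gphn and Gabarapl1. TPM keeps no depth, so no counting interval is given. Positions came from GENCODE M21 on GRCm38 and promoter windows from RefSeq (GRCm38.p6).

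Here log2(TPM + 1) was fitted with limma 3.58.1 in R 4.3.3 (empirical Bayes, mean-variance trend) over the 15596 genes with at least 1 TPM in at least 5 of 10 libraries, and a gene passed at a p under 0.05 after Benjamini-Hochberg adjustment. Gabre and Gabrq did not reach that filter. Ratios of 7 gene pairs were tested by exact permutation of the difference in mean log2 ratio, with 1 added to each TPM. The ratios printed for each library, with their means, are of TPM without that addition. The members, lists, ratios and alternatives were chosen with earlier results of these data known. The subunit shares and the promoter motifs were added afterwards. Values in every library are given for members that passed and, in each step, for the 2 with the smallest p and the 2 with the highest mean, with Gabra2 and Gabra5 added after their values were seen. Of the other pathway genes, those that passed and the 4 with the smallest p were to be named, and some of these results are not reported here. The alternatives changed the pseudocount, filter, scaling, variance model, sample weights, replicate block and libraries. The scripts were tested on simulated data.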

Additional observations from a re-analysis of the deposited data

Results flagged for a closer look

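In 4 of 68 sets of 5 libraries (27 genes and 7 ratios in each region), 1 library lay further from the others than 71.0% of the set's whole range, where chance gives about 1 in 20. All 4 were lateral. Gabra2 was lowest in lateral replicate 3, at 9.94 TPM. Gabrb2 was highest in lateral replicate 2, at 12.8 TPM. The ratio of Gad1 to Gad2 was highest in lateral replicate 4, at 1.71. The ratio of Gabbr1 to Gabbr2 was highest in lateral replicate 1, at 12.8.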

How the results depend on the processing

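Gad2 kept its direction in all 22 alternatives and its call in 20, with log2 fold changes of -0.996 to -0.687 and adjusted p of 0.00613 to 0.0649. The count of members higher in the medial shell, 1 as reported, was 2 under quantile normalization and with sample weights. It was 0 without a mean-variance trend and without both lateral replicate 5 and medial replicate 2 (fewer samples). In those fits 7 and 6 members had an unadjusted p under 0.05 by limma, and the matching shares of all genes are not given. Without single libraries the count of members that passed was 1 to 2, with Abat added without medial replicate 1. No alternative called a member in the lateral direction. The 3 other pathway genes became 1 without the trend, with the replicate block and without both libraries, and 1 to 3 without single libraries. Their count was 2 without the filter on low values, under median-ratio scaling, under quantile normalization and when rescaled without mitochondrial and haemoglobin genes.

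Deviations of same-numbered libraries from their group means had correlations from -0.05 to 0.04 over the genes tested. No lateral library was closest to the medial one of its own number. Such values cannot show whether same-numbered libraries came from the same mouse. With the replicate block Gad2 stayed past the threshold (adjusted p = 0.0494), and calls over all genes fell from 60 in lateral and 171 in medial to 19 and 45. The exact paired permutation test of the ratios cannot go below p = 0.0625, and the log2 differences 0.449, -1.16 and -0.793 of the 3 called ratios then had an adjusted p of 0.146. Without both libraries the smallest possible p of the exact permutation test is 0.0286, and those log2 differences were 0.460, -1.13 and -0.931 (adjusted p = 0.0667). Without single libraries the Gabra2 to Gabra4 difference ran from -0.896 to -0.554, and that of Gabarapl1 to Gabarap, which is near 0, from -0.0769 to 0.0873 (0.0986 without both libraries).

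Calls over all genes were 34 and 111 without the trend, 15 and 35 without both libraries and 27 to 68 and 56 to 187 without single libraries. The medial count was 107 with a pseudocount of 0.1, 82 under median-ratio scaling and 100 under quantile normalization. These scalings moved the median of all genes from -0.21 to -0.02 and to about 0, and the medial share of calls from 74.0% to 48.2% and 53.8%. Members near 0 changed sign. Gabra5 was -0.026 with a pseudocount of 5 and -0.328 to 0.462 without single libraries. Without single libraries Slc12a5 ran from -0.0672 to 0.112, Gabarap from -0.0419 to 0.135 and Gabarapl1 from -0.0592 to 0.143. Without both libraries Gabarap was -0.100 and Gabarapl1 -0.00144. Under median-ratio scaling Gabra5 was 0.269, Slc12a5 0.250, Gabarap 0.241 and Gabarapl1 0.227. The cause of these changes was not tested.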
